A study of Malus domestica with 2 samples.

Results

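Genes of fatty acid, phospholipid and sterol metabolism were examined in pedicels, the fruit stalks, of apple (Malus domestica). Members were gene models whose description named a desaturase, a fatty acid, a ketoacyl or acyl carrier protein, a phospholipase, a GDSL esterase, a sterol, or an acyl-CoA oxidase, dehydrogenase or synthetase. They were also selected on measured values, and had to hold at least 1 mapped sequence over both libraries or an entry on a deposited sheet of differing genes. Of 63541 gene models, 242 matched these words and 80 were members, while the other 162 had no sequence and no entry. Sequences were present for 75 members, 28 had a sheet entry, and 5 of these 28 had an entry but no sequence. At the threshold itself, 36 members held exactly 1 sequence. Lipid-transfer proteins and OPC-8:0 CoA ligase1 were not taken in.

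The cultivar was Saika in both groups. One group is the central pedicel and the other the lateral pedicel, each as a library on its own (n = 1 per group), and the labels give no treatment, age or time. Messenger RNA was taken from 50 μg of total RNA, and 200 ng of it went into each cDNA library for pyrosequencing on a Roche GS-FLX. The series title connects early fruit drop with the auxin regulators IAA14/SLR and ARF7 in a self-abscising apple. With 1 library per group no difference has a replicate check, and a value below describes the libraries alone. In such tissue, fewer cells of a type and less RNA per cell cannot be told apart.

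Fatty acids are built in plastids on acyl carrier protein, to which ketoacyl synthases add carbon units, and mitochondria hold an acyl carrier protein and a small pathway of their own. Desaturases then set double bonds, in plastids or in the endoplasmic reticulum, and phospholipases cut the finished membrane lipids, some of them as steps in signalling. Sterols are made in the endoplasmic reticulum from a squalene-derived ring and stiffen membranes. Very long fatty acids feed the waxes of the cuticle. In peroxisomes acyl-CoA oxidases open the breakdown of fatty acids.

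The central library held 18483 mapped sequences and the lateral library 18368, spread over 13544 and 13457 gene models. The counted units are contigs per the file headers, and how many reads lie behind a count is not known here. Equal counts thus need not mean equal amounts of RNA. A count of 0 allows up to 3 sequences, or 0.0162% of the central and 0.0163% of the lateral library. As a check of the tissue, words for chloroplast-bearing cells found 21 central and 24 lateral sequences, those for xylem and secondary wall 11 and 16, those for dividing cells 108 and 95, and those for phloem 3 and 2. Words for pollen found 26 and 30 sequences and those for seed storage 12 and 8. A description with such a word does not show that pollen or seed cells were present. Words for the cuticle and epidermis found 0 gene models, since no description held them. Genes of the cuticle can carry other descriptions, as does glycerol-3-phosphate acyltransferase 6 (MDP0000479163), named below. No list holds a marker of the pedicel itself.

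On the authors' sheets of differing genes, lipid genes stood mostly on the lateral one. The sheet headed LP held 21 members among its 741 entries, a share of 2.83%, and the sheet headed CP held 7 among 844, a share of 0.829%. Because an entry on a sheet is one of the ways into the membership, these counts are a description and were not tested. Of the 28 entries, 22 matched through the sheet's description alone. Of the 220 gene models that the whole table describes in the words of the rule, whatever their counts, 1 had a CP entry (0.455%) and 5 had an LP entry (2.27%). The like shares over all 63541 gene models were 1.33% with a CP entry and 1.17% with an LP entry. Desaturases contributed the most to the gap, with 1 CP and 7 LP entries, followed by GDSL esterases with 1 and 5 and sterol genes with 0 and 3. Phospholipases had 2 and 3, acyl chain building 3 and 2, fatty acid hydroxylases 0 and 1, and acyl-CoA oxidation 0 and 0. Some marker lists of cell types also had more LP than CP entries, with 9 CP and 17 LP for chloroplast-bearing cells, 1 and 6 for xylem and secondary wall, and 1 and 2 for phloem. Dividing cells had 6 and 6, pollen 6 and 5 and seed storage 2 and 0. The part of these lists in the members' split was not tested.

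**Figure D1:**
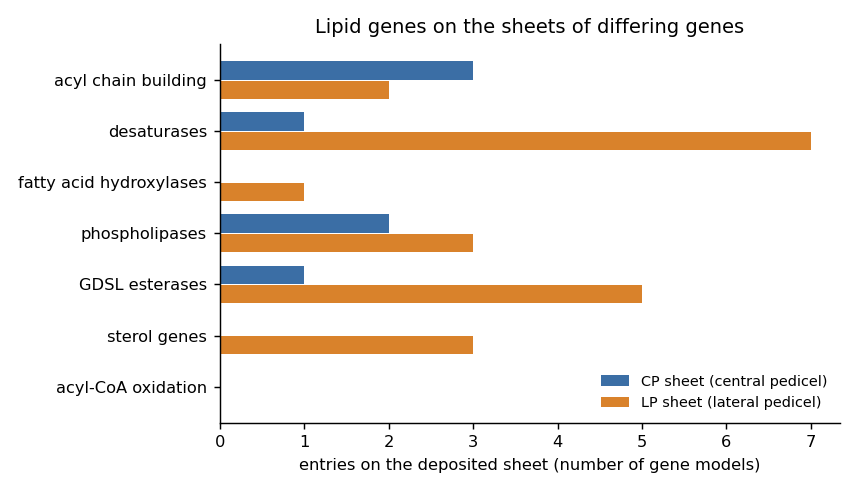
Number of entries (x axis) on the deposited CP and LP sheets for each of the 7 classes of lipid genes (y axis). Desaturases, with 1 CP and 7 LP entries, are the most uneven class, and acyl-CoA oxidation has no entry.

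Among the builders of the acyl chain, the entries were split between the sheets. The mitochondrial acyl carrier protein 1 had a copy on each, MDP0000345442 as a CP entry and MDP0000201048 as an LP entry. Both copies held 1 central and 1 lateral sequence, so the counts did not separate them. Acyl carrier protein 4 (MDP0000468488) was on the CP sheet without a sequence in either library. The 3-ketoacyl-acyl carrier protein synthase III (MDP0000717680), which starts the plastid chain, was on the CP sheet with 1 central and 0 lateral sequences. On the LP sheet, 3-ketoacyl-CoA synthase 10 (MDP0000235280), of the family that lengthens fatty acids beyond the plastid products, had 0 and 1. Outside the sheets, the beta-ketoacyl synthase MDP0000247378 had 1 central and 3 lateral sequences, and MDP0000255843, with an acyl carrier protein domain, had 2 in each library. The 10 members of the class summed to 8 central and 9 lateral sequences.

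All 8 desaturase members had a sheet entry, which the rule fixed for 6 of them, since they matched through the sheet's description alone. MDP0000210620 and MDP0000688638 matched in the whole table too. The desaturases included enzymes of the plastid and of the endoplasmic reticulum. Fatty acid desaturase 2 (MDP0000722255), which makes linoleic acid in the endoplasmic reticulum, was on the LP sheet with 1 sequence in each library. Its plastid counterpart, fatty acid desaturase 6 (MDP0000029382), was there too, also with 1 in each. Fatty acid desaturase 5 (MDP0000334757), which in Arabidopsis desaturates palmitic acid on a plastid galactolipid, had 0 central and 1 lateral sequences. Fatty acid desaturase A (MDP0000599427), whose Arabidopsis namesake acts on plastid phosphatidylglycerol, had 0 and 2. These LP entries were thus either equal in the libraries or found in the lateral library alone.

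Fatty acid desaturase 8, a plastid enzyme that makes trienoic acids and in Arabidopsis responds to cold, had an entry on each sheet. The CP copy, MDP0000233356, held 1 central and 3 lateral sequences, more in the library that its sheet is not named for. The LP copy, MDP0000210620, held 0 and 1. A further pair acts on sphingolipids, whose long-chain bases desaturases modify. MDP0000688638, which the whole table describes as a sphingolipid delta4-desaturase, was on the LP sheet with 2 sequences in each library. MDP0000231050, named fatty acid/sphingolipid desaturase, was on the LP sheet with 1 central and 0 lateral sequences. Summed, the desaturases held 6 central and 11 lateral sequences. Their log2 ratio of lateral over central was 0.88 with an exact 95% interval from -0.68 to 2.60, which includes 0. All 8 had a sheet entry, and the authors chose the sheets on these same libraries. This ratio is thus a description and lends no separate support to the split between the sheets. Of the 26 gene models matching as desaturases, the other 18 had no sequence and no entry.

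Sterol genes had entries on the LP sheet and none on the CP sheet. Sterol-4alpha-methyl oxidase 1-1 (MDP0000320408), which takes a methyl group off the sterol ring, was listed with an FDR of 0 in the authors' deposited table, and its deposited log2 ratio was -5.79. The whole table gave it 1 sequence in each library. The C-8,7 sterol isomerase (MDP0000131723), which moves a ring double bond, also had 1 in each. An ERG4/ERG24 family gene (MDP0000351222), a family of sterol reductases, had none in either.

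Outside the sheets, the widest gap among sterol genes belonged to another ERG4/ERG24 gene, MDP0000285817, with 0 central and 3 lateral sequences. Only 1 of those 3 mapped uniquely, and both values lie at or under the limit of 3 sequences. No fold is given, since the gene model is under the minimum of 4 sequences over both libraries. Gene models with a sterol desaturase domain, found in sterol oxidases and in enzymes of wax synthesis, numbered 7 and summed to 6 central and 6 lateral sequences. Among them MDP0000477496 had 2 central and 0 lateral sequences and MDP0000739471 had 2 and 1. The 3 oxysterol-binding proteins, which carry sterols and other lipids between membranes, summed to 2 and 4. Among these, MDP0000845576 had 1 central and 2 lateral sequences. The 2 lecithin:cholesterol acyltransferases had 1 sequence each, the central one for MDP0000301804 and the lateral one for MDP0000911376. All 19 sterol members together held 14 central and 17 lateral sequences.

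Phospholipases were the class with more central than lateral sequences, 6 and 4, a log2 ratio of -0.58 with an exact 95% interval from -2.84 to 1.50, which includes 0. Phospholipase D delta, a membrane-bound enzyme that releases phosphatidic acid, had an entry on each sheet. MDP0000125742, on the CP sheet, had a log2 ratio of 5.16 in the authors' deposited table and no sequence in the counts. MDP0000304811, on the LP sheet, had 3 central and 1 lateral sequences, which again runs against the name of its sheet. Non-specific phospholipases C, which cut common membrane phospholipids, also appeared on both sheets. C6 (MDP0000285998) was a CP entry and C2 (MDP0000660087) an LP entry, both without a sequence. An acyl hydrolase of the lysophospholipase superfamily (MDP0000180239), with a patatin domain in the whole table, was on the LP sheet with 0 central and 1 lateral sequences. A phosphatidylinositol-specific phospholipase C (MDP0000275280) and a phospholipase A2 (MDP0000815303), on neither sheet, had 1 sequence in each library.

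**Figure D2:**
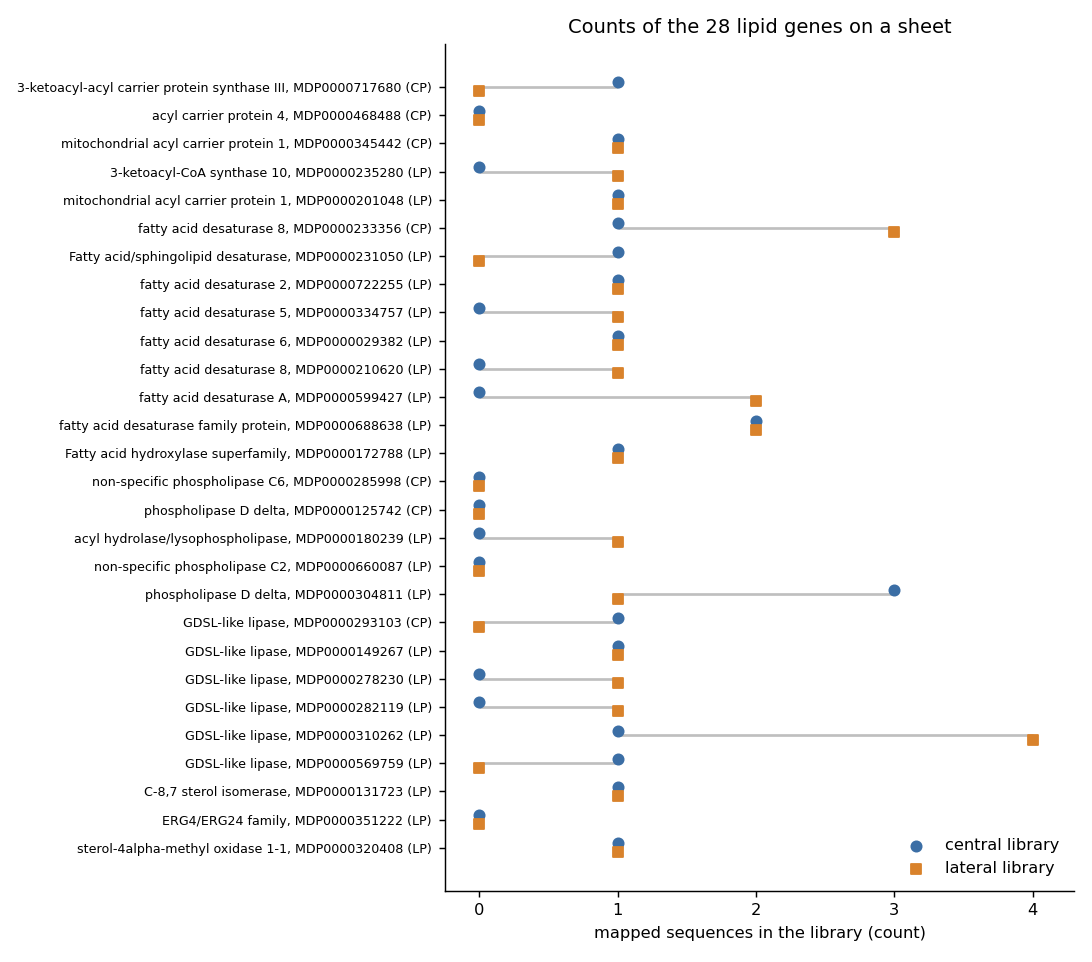
Mapped sequences (x axis, count) in the central library (circles) and the lateral library (squares) for the 28 lipid genes with a sheet entry (y axis, with the sheet in brackets). The GDSL-like lipase MDP0000310262 reaches 4 lateral sequences, the CP copy of fatty acid desaturase 8 has 1 and 3, and the LP copy of phospholipase D delta has 3 and 1.

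GDSL esterases, a large family of secreted lipases and acylhydrolases that includes the polymerising enzymes of cutin, were the class with the most members. There were 21 members of 83 matching gene models, with 13 central and 20 lateral sequences. The highest count among the members was that of MDP0000310262, on the LP sheet, with 1 central and 4 lateral sequences, all mapped uniquely. Its log2 ratio of lateral over central was 2.01, with an exact 95% interval from -1.33 to 7.63. MDP0000193364, on neither sheet, had 1 and 3. The LP sheet also held MDP0000278230 and MDP0000282119, matched by the authors to the same Arabidopsis gene, each with 0 central and 1 lateral sequences. Of its other entries, MDP0000149267 had 1 in each library and MDP0000569759 had 1 central and 0 lateral. On the CP sheet, MDP0000293103 had 1 and 0.

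Most of the lateral surplus of this family came from sequences that did not map uniquely, and 6 of its members had no unique sequence. Of its sequences, 13 central and 14 lateral ones mapped uniquely, against 13 and 20 in all. MDP0000299365 and MDP0000567960, gene models of the same length (681 bases), each had 1 lateral sequence and no unique one, so their values are uncertain. Over all members 91.2% of central and 83.3% of lateral sequences were unique, against 89.3% and 89.4% over all gene models.

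Acyl-CoA oxidation had no sheet entry but the widest summed log2 ratio of any class, 0.92. The exact 95% interval ran from -0.41 to 2.36, which includes 0. Most of the 12 members carry only a domain name shared by acyl-CoA dehydrogenases and oxidases. Which of them act in fatty acid breakdown cannot be read from these names. The class held 8 central and 15 lateral sequences, and 7 members had more in the lateral against 2 with more in the central library. MDP0000195432 and MDP0000633191, with the central domain of acyl-CoA dehydrogenases and oxidases, had 0 central and 2 lateral sequences each. MDP0000125797 and MDP0000240458 had 1 and 2, and MDP0000275765 had 2 and 1. In MDP0000633191, 1 lateral sequence did not map uniquely, and in MDP0000275765, 1 central sequence did not. The class held 7 central and 14 lateral uniquely mapped sequences. No member of the class passed 2 sequences in a library. A 3-hydroxyacyl-CoA dehydrogenase, MDP0000258192, which catalyses a later step of fatty acid breakdown, had 0 central and 1 lateral sequences. The fatty acid hydroxylases were level, MDP0000172788 on the LP sheet and MDP0000281701 on neither, each with 1 sequence in each library.

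**Figure D3:**
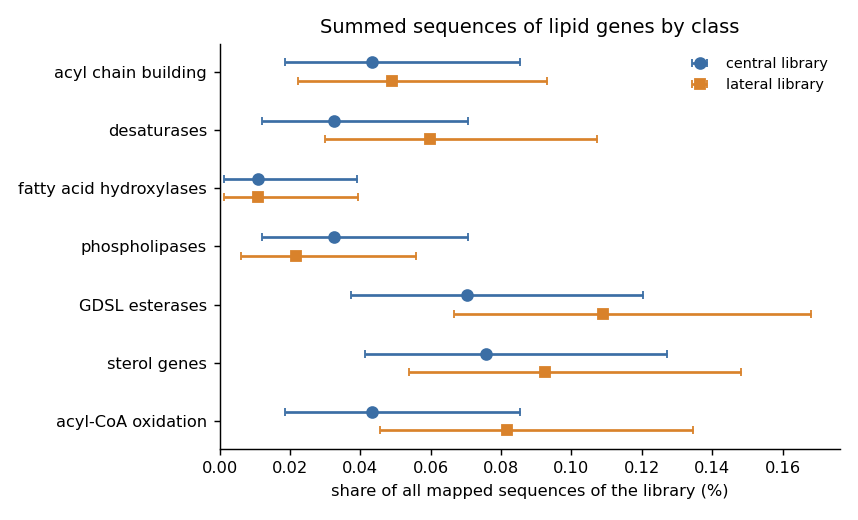
Share of all mapped sequences of a library (x axis, percent) held by each class of lipid genes (y axis), with exact 95% intervals that cover counting error only. The intervals of the central and lateral libraries overlap in every class, and the lateral share is the lower one only for phospholipases.

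Summed over all 80 members, the central library held 57 lipid sequences, 0.308% of the library (exact 95% interval 0.234% to 0.399%). The lateral library held 78, 0.425% (0.336% to 0.530%). The log2 ratio of these sums was 0.46 with an interval from -0.05 to 0.98, so a difference was not detectable at these counts. Intervals cover counting error only and treat sequences as independent, which contigs of 1 transcript are not. The 52 members on neither sheet gave the same ratio, with 38 central and 52 lateral sequences.

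Member by member, 32 of the 75 with a sequence had more in the lateral library (42.7%) and 19 had more in the central library (25.3%). Over all 18337 gene models with a sequence these shares were 35.4% and 36.2%. Sequences in the lateral library alone were found for 25 members (33.3%) and in the central library alone for 16 (21.3%), against 26.1% and 26.6% of all gene models. The median log2 ratio was 0.01 for the members and 0.01 for all gene models, since the middle gene model has equal counts.

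Folds were set for the 7 members with at least 4 sequences over both libraries, after 0.5 was added to each count. At least 2-fold higher in the lateral library were 4 of them, MDP0000310262, MDP0000193364, MDP0000247378 and MDP0000233356, and at least 2-fold higher in the central library was MDP0000304811. With 1 added to each count the same 4 lateral genes passed and MDP0000304811 did not, which left 0 higher in the central library. Over the 2074 gene models with at least 4 sequences, 17.0% were at least 2-fold higher in the lateral and 16.1% in the central library. Each of the 5 rested on 4 or 5 sequences. Their exact 95% intervals all included 0 on the log2 scale, from -2.04 to 7.31 for those with 1 central and 3 lateral sequences and from -7.29 to 2.06 for MDP0000304811.

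No member reached the 10 sequences set for the Fisher exact test of single gene models, and 0 of the 24 gene models that did were called (0%). Without that minimum, 0 of 75 members and 0 of 18337 gene models were called (0%). The smallest unadjusted Fisher exact p of a member was 0.124 with an adjusted p of 1, for MDP0000285817. A gene model needs 5 sequences, all in 1 library, before the unadjusted p falls to 0.0308, so after adjustment the test could not have called any of these members at whatever split. Kal's test in the authors' deposited table, which takes RPKM as counts, gave an FDR under 0.05 to all 51 members with unequal counts, 32 higher in the lateral and 19 in the central library. It gave one to 33.7% and 34.0% of all gene models with a sequence in these directions.

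**Figure D4:**
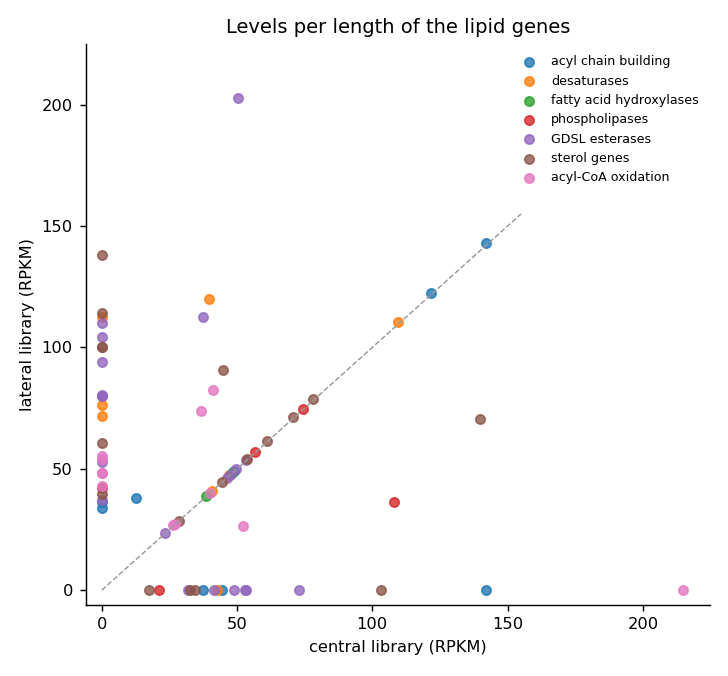
RPKM, the count scaled to the length of the gene model and the size of the library, in the central (x axis) and lateral library (y axis) for the 75 lipid genes with a sequence, coloured by class. Points on the dashed line are equal, 25 lie on the y axis with a lateral value alone and 16 on the x axis with a central value alone.

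Levels per length are given as RPKM. Among values above 0, those of the members ranged from 12.6 to 215 with a median of 49.9, and the median over all gene models was 49.1. With 1 sequence behind 36 of the 75 members, and behind 8067 of the 18337 gene models, such a value is largely 1 count over the model's length, so these medians do not compare levels. The highest value, 215 in the central library, belonged to MDP0000905389, a gene model of 252 bases with 1 sequence. Its description names the central domain of acyl-CoA dehydrogenases and oxidases. The next highest was MDP0000310262, with 203 in the lateral and 50.4 in the central library. The mitochondrial acyl carrier protein 1 copies stood at 142 and 143 RPKM (MDP0000201048) and at 122 and 122 (MDP0000345442). As these short gene models hold 1 sequence per library, an order of levels between genes cannot be read from them.

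Sheets and counts were then set side by side. Of the 21 LP members, 8 had more sequences in the lateral (38.1%) and 3 in the central library (14.3%), and over all LP entries these shares were 31.4% and 15.7%. Equal counts above 0 were found for 8, and 2 had none. Of the 7 CP members, 2 had more central (28.6%) and 1 more lateral sequences (14.3%), against 34.0% and 16.2% over all CP entries. Another 1 was equal and 3 had no sequence. Both members with a deposited log2 ratio carry a sign that, read as lateral over central as the file states, opposes the name of their sheet, so it is not used as a direction. In the authors' deposited table, 6 of the 28 entries had an FDR listed as 0, and the largest FDR was 2.20e-05.

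The 28 entries were matched by the authors to 24 Arabidopsis genes, of which 4 had 2 entries. In 3 of these 4, the copies lay on opposite sheets, namely the mitochondrial acyl carrier protein 1, fatty acid desaturase 8 and phospholipase D delta. Over both sheets, 137 of 1337 Arabidopsis genes had more than 1 entry and 49 were on both sheets. How the authors' counting divides reads between such copies is not given in the sources used here, so their values are uncertain. In gene ontology terms, 2 CP and 12 LP members carried lipid metabolic process, out of 3 CP and 16 LP entries with that term. Oxidation-reduction was carried by 1 CP and 8 LP members, out of 40 and 51 entries. Hydrolase activity on ester bonds was carried by 2 CP and 6 LP members, out of 2 and 7. Fatty acid biosynthesis was carried by 1 and 4, out of 1 and 4, and oxidoreductase activity by 1 and 8, out of 23 and 46. For iron ion binding these were 0 and 2, out of 7 and 4. Cofactor binding went the other way among members, with 2 CP and 1 LP, out of 2 and 3.

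Other genes of lipid metabolism, found with further words such as lipase, acyltransferase, thioesterase and lipoxygenase, numbered 136 and leaned the other way in the counts. They held 143 central and 122 lateral sequences. The log2 ratio was -0.22 with an exact 95% interval from -0.58 to 0.14, which includes 0. More sequences were in the central library for 56 of the 132 with a sequence and in the lateral library for 45. On the sheets they had 12 CP entries (1.42%) and 16 LP entries (2.16%). The LP sheet held glycerol-3-phosphate acyltransferase 6 (MDP0000479163), a cutin enzyme in Arabidopsis, with 3 central and 2 lateral sequences. It also held glycerol-3-phosphate acyltransferase 9 (MDP0000326399), with 0 and 1, and sulfoquinovosyldiacylglycerol 2 (MDP0000325482), which makes a plastid sulfolipid, with 1 and 0. Lipoxygenase 2 (MDP0000178268), which oxidises polyunsaturated fatty acids, was on the CP sheet without a sequence. The proteins trigalactosyldiacylglycerol 1 (MDP0000159221) and trigalactosyldiacylglycerol2 (MDP0000356050), parts of a lipid importer of the chloroplast, were a CP entry with 1 and 0 and an LP entry with 0 and 1. The words also take in an N-acyltransferase superfamily and phosphoinositide-dependent protein kinase 1. Not every gene counted here is thus one of lipid metabolism.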

How the data were processed

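Messenger RNA of the central and the lateral pedicel was sequenced as 1 library each. The authors deposited a count of mapped and of uniquely mapped sequences per gene model and library, and RPKM, in which counts are divided by model length and by the sum of the library. Trimmed contigs were counted, per the file headers. The deposited p-value and FDR columns come from Kal's Z-test in the whole table and from NOISeq on the sheets, per the file headers. The authors also deposited log2 ratios in a file of their own. What aligner, assembler and annotation were used is not given in the sources used here, and 12 per-library columns were not used. Looked up in the RefSeq gene table, 0 identifiers matched, and coordinates and sequences are left out.

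Each gene model was put in 1 of 7 classes by its description, the sheet's where that matched. Log2 ratios are lateral over central, scaled by library total, with 0.5 added where single gene models are counted past 2-fold (minimum 4 sequences). Intervals are exact Clopper-Pearson intervals. The two-sided Fisher exact test ran over all gene models with at least 10 sequences, with Benjamini-Hochberg adjustment (called at adjusted p under 0.05 and 2-fold). It was tested on simulated data, where recovery of planted changes was required only at a depth far above that of these libraries. The Fisher test compares libraries, not kinds of pedicel, and edgeR's quasi-likelihood test cannot be fitted to 1 library per group. Genes named are those with a sheet entry or deposited ratio, those with at least 5 sequences, and up to 3 of the highest count per class, and some others were chosen after their values were seen. The members and lists were chosen with earlier results of these data known. Alternatives covered the count used, fold, pseudocount, scaling, minimum count, FDR, copies and classes. Scripts ran in Python 3.11.15 with scipy 1.17.1, numpy 2.4.6, pandas 2.3.3 and matplotlib 3.10.9.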

Additional observations from a re-analysis of the deposited data

How the results depend on the processing

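Of 21 alternative values, 18 stayed within the tolerance used, which is 1.5 times for a count and the exact 95% interval for a log2 ratio, and 0 reversed. The 18 include Fisher exact test settings that could not have differed, and log2 ratios over parts of the same sequences. Within the tolerance, with 1 added to each count 4 members passed 2-fold in place of 5, all 4 higher in the lateral library. At a 4-fold threshold 0 members were left in place of 5, and with no minimum count 46 passed 2-fold, 29 of them higher in the lateral library, since any count of 1 against 0 then passes. Without members lacking a sequence the CP sheet held 4 lipid entries in place of 7, and the LP sheet 19 in place of 21. A limit of 1e-06 on the deposited FDR left 5 and 16. The log2 ratio of the summed counts was 0.33 with uniquely mapped counts, 0.41 without GDSL esterases and 0.46 over members on neither sheet, and each of these intervals included 0. The Fisher exact test called 0 members under every setting tried, at counts too low for it to call any. Low counts of contigs limit all of these results, as no member passed 4 sequences in a library. No paired analysis was possible because each group has 1 library.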
